A study of Rattus norvegicus with 6 samples.

Results

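Antioxidant enzymes and targets of the transcription factor NRF2 were followed through 10 genes in RNA sequencing of rat dorsal root ganglia, the clusters of sensory neuron cell bodies beside the spinal cord. With their gene IDs as deposited, they were Hmox1 (24451), Nqo1 (24314), Gclc (25283), Gclm (29739), Gpx2 (29326), Txnrd1 (58819), Srxn1 (296271), Sod1 (24786), Sod2 (24787) and Cat (24248). Each was taken by its symbol from a table of 22864 genes, each symbol matched 1 row, and all 10 were among the 15531 genes that passed the filter on low counts. Ganglia L4 to L6 of the operated side were taken on day 7 from rats labelled wild type, and 3 groups of 2 libraries each were sequenced. CPIP+ETA rats had an O-ring (5.5 mm across on the inside, a size given for males) tied around the hind limb at the ankle for 3 h under pentobarbital (40 mg/kg), the chronic post-ischaemia pain model, and then intrathecal etanercept, a soluble TNF receptor fusion protein. CPIP+Veh rats had the same ring and intrathecal vehicle. Sham+Veh rats had the same anaesthesia and intrathecal vehicle without a ring. Injections were given each day, beginning 2 days after the ring. Neither strain nor age is given in the sources used here. Whether each library is 1 animal or a pool is not stated in the labels, and the p-values below therefore describe the spread between libraries, part or all of which may be technical.

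As background, NRF2, encoded by Nfe2l2, is held in the cytoplasm and marked for destruction by KEAP1. Oxidants and electrophiles modify KEAP1, and NRF2 then pairs with a small MAF protein in the nucleus and binds a short motif, the antioxidant response element, near genes of glutathione synthesis, thioredoxin reduction, quinone detoxification and haem breakdown. BACH1 occupies the same motif as a repressor, above all at Hmox1. In bulk tissue, fewer cells of a type and less RNA per cell cannot be told apart.

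Total counts were 18285251 to 19981250 per library. The 12 sensory neuron markers summed to 38354 to 43040 CPM (counts scaled to a common library size by the TMM method) and the 10 satellite glia markers to 5374 to 5975 CPM, and no marker of either list was at 0 in any library. Other tissue varied more between libraries. The 8 Schwann cell myelin markers summed to 9271 CPM (CPIP+ETA 1) to 14019 CPM (Sham+Veh 2). The 8 skeletal muscle markers summed to 10.1 CPM (CPIP+ETA 1) to 82.1 CPM (CPIP+Veh 2), with 16.05 CPM in CPIP+Veh 1. The members were counted 278 times (Hmox1, Sham+Veh 2) to 5784 times (Sod1, CPIP+ETA 1) per library, so counting error alone was 1.31% to 6.00% of a value. Levels of different genes are not set against each other, since no transcript lengths were used.

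Hmox1 had its highest and Gpx2 its lowest values in the rats given etanercept, and Sod2, the mitochondrial dismutase, was the member with the largest fold change in the vehicle-treated model against sham. No member passed the test for any difference among the 3 groups (edgeR quasi-likelihood F-test, Benjamini-Hochberg adjusted p of 0.675 for Gpx2, 0.834 for Hmox1 and 0.858 for Sod2, n = 2 libraries per group), in which 0.00644% of all genes tested were called at an adjusted p under 0.05. These 3 were the members with an unadjusted p under 0.05, against 5.52% of all genes tested. DESeq2 called 1 of the 10, Gpx2 (adjusted p = 0.00619), and 0.496% of all genes. Limma-voom called 0 of the 10, with a smallest adjusted p of 0.702.

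**Figure D1:**
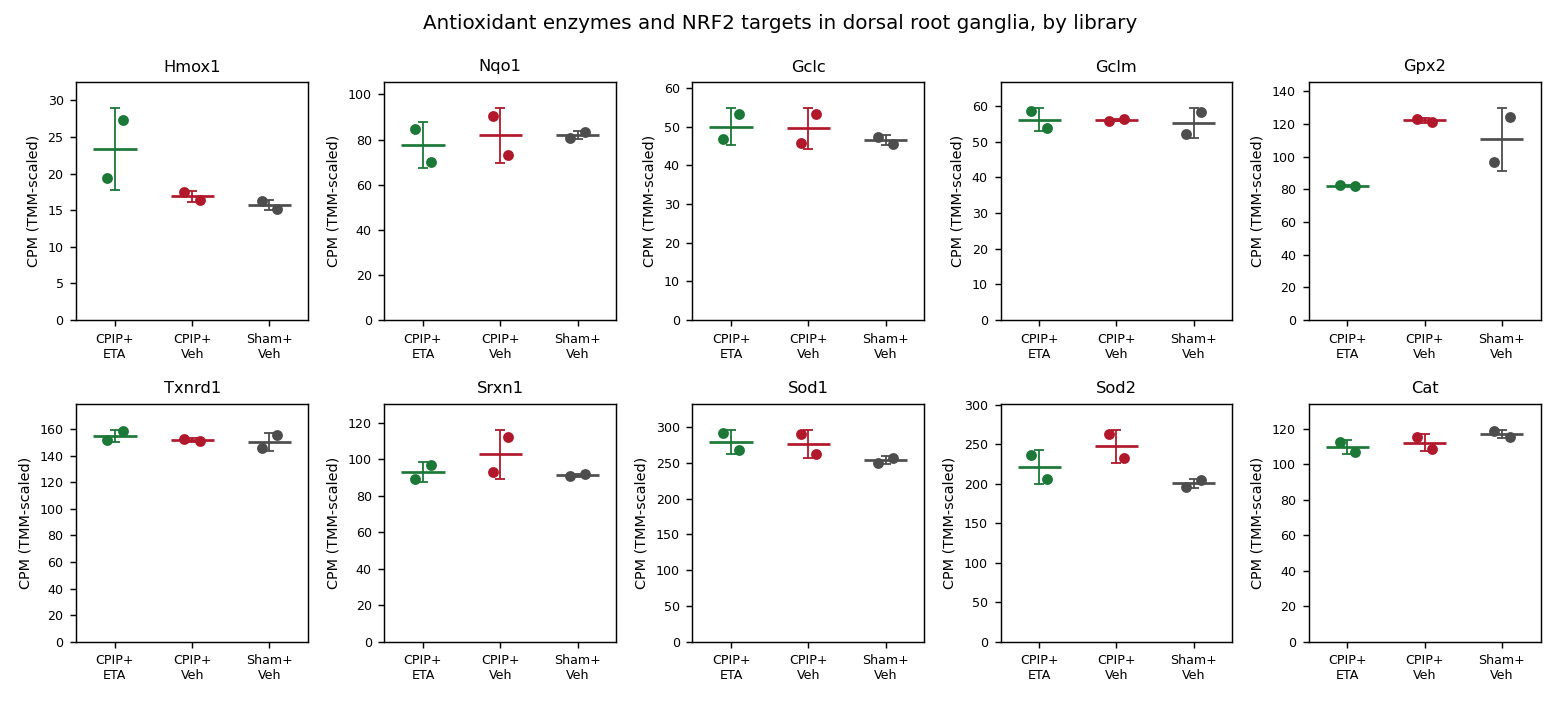
TMM-scaled CPM (y axis, from 0) of the 10 members in each of the 6 libraries (points), by group (x axis), with the group mean (bar) and SD (error bar, n = 2). Gpx2 stands at 82.7 and 82.0 CPM in CPIP+ETA, below every other library, and Hmox1 at 19.4 and 27.3 CPM in CPIP+ETA, above every other library.

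Gpx2 encodes a glutathione peroxidase best known from the gut lining, which uses glutathione to reduce hydrogen peroxide and lipid peroxides, and it is a described NRF2 target. It stood at 82.7 and 82.0 CPM in CPIP+ETA, 123 and 121 CPM in CPIP+Veh, and 97.0 and 124 CPM in Sham+Veh. Both CPIP+ETA libraries lay below all 4 others, and the CPIP+Veh values lay within the range of sham.

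Because Gpx2 had the lowest p of the members, the start of its gene is shown with the core of the antioxidant response element, TGACNNNGC, searched on both strands. The RefSeq window of the GRCr8 assembly, another build than that of the counts, covers chr6:101229984-101230283 on the minus strand, from 250 bases before to 50 bases after the annotated start. It holds 1 match, at bases -13 to -5 on the complementary strand, so the capitals show it as its reverse complement.
Gpx2 promoter: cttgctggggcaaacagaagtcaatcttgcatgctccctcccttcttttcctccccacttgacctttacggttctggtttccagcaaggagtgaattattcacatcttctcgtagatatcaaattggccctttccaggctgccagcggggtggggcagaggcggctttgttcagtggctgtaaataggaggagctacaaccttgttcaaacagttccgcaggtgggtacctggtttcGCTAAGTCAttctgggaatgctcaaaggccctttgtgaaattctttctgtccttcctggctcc

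The same search covered the 9 members with a window in the RefSeq table, all but Hmox1, and found the motif at 4 of them, in 40.0% of their 10 windows (Txnrd1 has 2). Of all 33469 windows of the same length, 12.1% hold it. The matched sites are printed to show how alike they are outside the fixed letters, each on the strand that carries the motif, with the 9 motif bases in capitals and 10 bases on each side.
Gclm site: tggaagacaaTGACTAAGCagaaaccgca
Txnrd1 site: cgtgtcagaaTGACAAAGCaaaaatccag
Sod2 site: agctaggcgcTGACCCTGCcggcagcgcc
Gpx2 site: attcccagaaTGACTTAGCgaaaccaggt
All 4 lie on the strand complementary to the gene. In GRCr8 the motif of Gclm is at chr2:213031963-213031971 (bases -172 to -164 from the start), that of Txnrd1 at chr7:22755974-22755982 (-78 to -70), that of Sod2 at chr1:50050195-50050203 (-35 to -27) and that of Gpx2 at chr6:101230038-101230046 (-13 to -5). The windows of Nqo1, Gclc, Srxn1, Sod1 and Cat do not hold these letters. Sequence outside the windows was not searched, so these genes may still have the motif farther away. Of the genes with a match, Gclm and Txnrd1 overlapped between groups in all 3 comparisons, while Sod2 was highest on average in CPIP+Veh and Gpx2 lowest in CPIP+ETA. A match describes the letters only.

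CPIP+Veh was set against Sham+Veh to see how these genes stood in the ischaemia model. The superoxide dismutases Sod1 and Sod2, sulfiredoxin and Hmox1 were above sham with no overlap between the groups, and no member was below sham with no overlap. Sod3, a further superoxide dismutase and not a member, went the other way. It stood at 75.1 and 84.3 CPM in CPIP+ETA, 85.3 and 63.7 CPM in CPIP+Veh, and 88.8 and 97.8 CPM in Sham+Veh. Of the 10 members, 8 had a log2 fold change above 0 (49% of all genes) and 2 below, and the median was 0.10, beside -0.00 over all genes, whose quartiles were -0.09 and 0.08. At an adjusted p under 0.05, edgeR called 0 of 10 members, against 0.0193% of all genes, and at an unadjusted p under 0.05 it counted 1 member, Sod2, as higher (2.34% of all genes) and 0 as lower (2.59%). DESeq2 called 0 members (0.315% of all genes) and limma-voom 0 (0.0129%).

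Sod2, the manganese superoxide dismutase of the mitochondrial matrix and a known target of TNF signalling through NF-kB, stood at 263 and 233 CPM in CPIP+Veh, against 196 and 205 CPM in Sham+Veh. Both CPIP+Veh libraries were above both sham libraries, by a log2 fold change of 0.30 (SE 0.086, 95% interval 0.10 to 0.51, edgeR adjusted p = 0.938, n = 2 libraries per group). Sod1, the copper and zinc dismutase found mainly in the cytosol, stood at 289.9 and 262 CPM in CPIP+Veh, against 249 and 257 CPM in Sham+Veh (log2 fold change 0.13, SE 0.069, adjusted p = 0.948 in edgeR). CPIP+Veh 2 lay close to the nearer sham library for Sod1, and the log2 fold change was 0.053 without CPIP+Veh 1 and 0.19 without CPIP+Veh 2.

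Srxn1, sulfiredoxin, repairs over-oxidised peroxiredoxins. It stood at 92.9 and 112 CPM in CPIP+Veh, against 90.5 and 91.8 CPM in Sham+Veh (log2 fold change 0.17, SE 0.095, adjusted p = 0.948 in edgeR), and without CPIP+Veh 2 the log2 fold change was 0.027. Hmox1 stood at 17.4 and 16.3 CPM in CPIP+Veh, against 16.2 and 15.2 CPM in Sham+Veh (log2 fold change 0.10, SE 0.17, adjusted p = 0.972 in edgeR, and 0.059 without CPIP+Veh 1). Sod1, Sod2, Srxn1 and Hmox1 were thus the 4 of 10 members above sham with no overlap, where 17.6% of all genes tested were, and 0 of 10 were below it, where 19.5% were.

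The remaining 6 members overlapped between CPIP+Veh and Sham+Veh. Gclc and Gclm are the catalytic and modifier subunits of the enzyme that makes the first bond of glutathione, and their log2 fold changes were 0.09 (95% interval -0.14 to 0.32) and 0.02 (-0.16 to 0.20). Txnrd1, the cytosolic selenoprotein that reduces thioredoxin, had 0.01 (-0.12 to 0.14), the narrowest interval of the 10. Nqo1, a quinone reductase and a standard readout of NRF2, had -0.00 (-0.29 to 0.29). Catalase, encoded by Cat, splits hydrogen peroxide in peroxisomes and had -0.06 (-0.20 to 0.07). Gpx2 had 0.14 (-0.12 to 0.41), with -0.016 without Sham+Veh 1 and 0.34 without Sham+Veh 2. An interval that covers 0 does not show that the groups were equal.

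**Figure D2:**
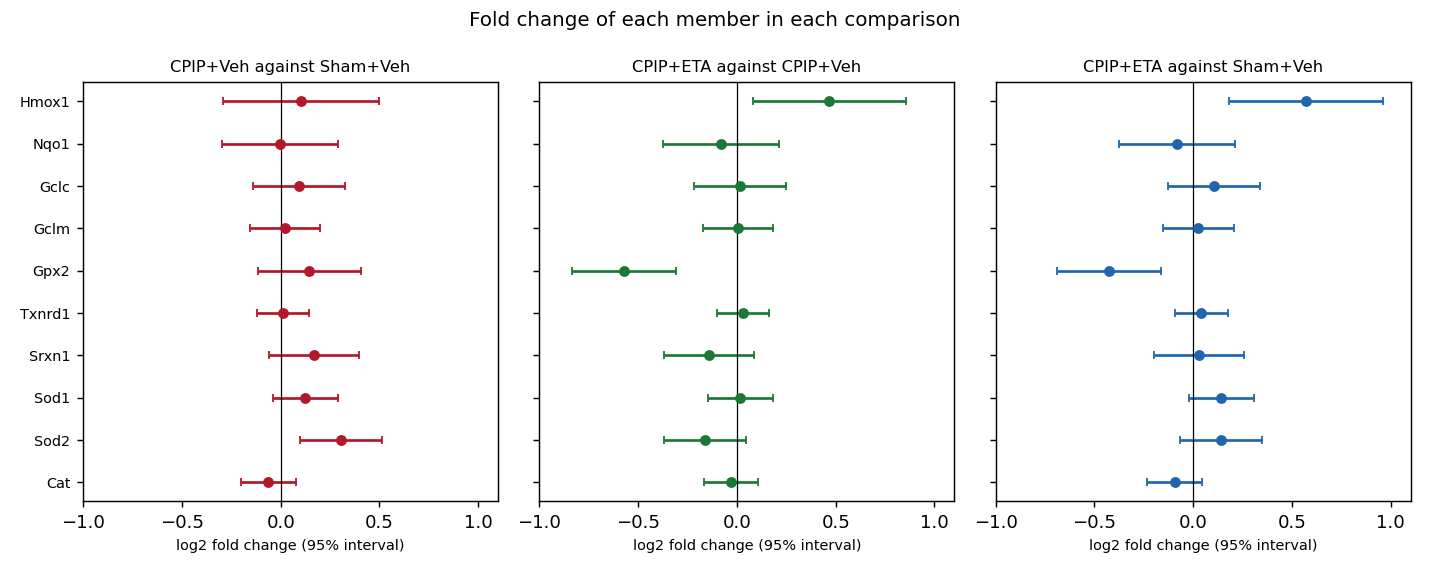
Log2 fold change of each member (x axis; rows, genes) with its 95% interval from the edgeR fit (bars) in the 3 comparisons, before any adjustment for multiple tests. The intervals of Hmox1 (0.47 and 0.57) and Gpx2 (-0.57 and -0.43) do not reach 0 in either comparison of CPIP+ETA, nor does that of Sod2 (0.30) in CPIP+Veh against Sham+Veh.

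CPIP+ETA was set against CPIP+Veh to see how the genes stood with etanercept within the model. Gpx2 was lower and Hmox1 was higher in both etanercept libraries than in both vehicle libraries, and the other 8 members overlapped between the groups. Of the 10 members, 5 were above 0 (49.6% of all genes) and 5 below, with a median log2 fold change of -0.01, beside -0.00 over all genes. EdgeR called 0 of 10 members and 0% of all genes, with 1 member higher and 1 lower at an unadjusted p under 0.05 (2.42% and 2.73% of all genes). Hmox1 was the 1 of 10 members higher with no overlap (15.7% of all genes) and Gpx2 the 1 of 10 lower with no overlap (16.9%).

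On the lower side, Gpx2 averaged 82.3 ± 0.46 CPM in CPIP+ETA and 122 ± 1.4 CPM in CPIP+Veh (SD, n = 2 each), a log2 fold change of -0.57 (SE 0.11, 95% interval -0.83 to -0.31). Both SDs are smaller than counting error alone, which was 2.47% and 2.58% of the values in CPIP+ETA and 2.03% and 2.04% in CPIP+Veh. They therefore understate the spread to be expected between libraries. In edgeR Gpx2 did not pass over all genes (adjusted p = 0.827), although it ranked at place 27 of 15531 by p. DESeq2 called it (adjusted p = 0.00634), as 1 of 8 genes lower by that tool (0.0515% of all tested), and limma-voom called 0 members (0% of all genes). By DESeq2 it was no longer called once any 1 of the 4 CPIP libraries was left out, with an adjusted p of 0.134 (CPIP+ETA 1 left out), 0.094 (CPIP+ETA 2), 0.356 (CPIP+Veh 1) and 0.167 (CPIP+Veh 2). It was called by DESeq2 without Sham+Veh 1 (adjusted p = 2.46e-05) and without Sham+Veh 2 (6.13e-05). In edgeR the log2 fold change stayed between -0.58 and -0.56 with any 1 library left out.

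Of the other members on that side, Sod2 stood at 236 and 206 CPM in CPIP+ETA, against 263 and 233 CPM in CPIP+Veh (log2 fold change -0.16, SE 0.086, adjusted p = 0.938 in edgeR), with -0.069 without CPIP+ETA 2 and -0.069 without CPIP+Veh 1. Srxn1 stood at 89.2 and 96.7 CPM in CPIP+ETA, against 92.9 and 112 CPM in CPIP+Veh (log2 fold change -0.14, SE 0.095, adjusted p = 0.938 in edgeR). Both genes overlapped between the groups, and the log2 fold change of Srxn1 was 0.00 without CPIP+Veh 2, the library in which it was highest. Nqo1 (-0.08) and Cat (-0.03) were the remaining members below 0.

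On the higher side, Hmox1 encodes haem oxygenase 1, which breaks haem into biliverdin, iron and carbon monoxide and is induced in macrophages that take up haemoglobin. It was counted 385 and 502 times in CPIP+ETA, 344 and 324 times in CPIP+Veh, and 299 and 278 times in Sham+Veh. That is 19.4 and 27.3 CPM in CPIP+ETA, 17.4 and 16.3 CPM in CPIP+Veh, and 16.2 and 15.2 CPM in Sham+Veh. The log2 fold change of CPIP+ETA against CPIP+Veh was 0.47 (SE 0.16, 95% interval 0.08 to 0.86, edgeR adjusted p = 0.938), with 0.20 without CPIP+ETA 2 and 0.70 without CPIP+ETA 1. Gclc (0.01), Gclm (0.00), Txnrd1 (0.03) and Sod1 (0.02) were the other members above 0.

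Transcripts of macrophages and red blood cells differed beside Hmox1. Cd163, the haemoglobin scavenger receptor of tissue macrophages, stood at 23.8 and 17.0 CPM in CPIP+ETA, 5.21 and 7.77 CPM in CPIP+Veh, and 10.02 and 8.54 CPM in Sham+Veh (log2 fold change of CPIP+ETA against CPIP+Veh 1.65, SE 0.23, edgeR adjusted p = 0.721, DESeq2 adjusted p = 4.18e-05). Both CPIP+ETA libraries had more Cd163 than every other library. Of the 14 macrophage markers, 10 had a higher mean in CPIP+ETA than in CPIP+Veh (49.6% of all genes had a log2 fold change above 0) and 4 a lower one. With no overlap, 4 were higher and 2 lower (15.7% and 16.9% of all genes). The list summed to 532 and 623 CPM in CPIP+ETA, 637 and 641 CPM in CPIP+Veh, and 564 and 489 CPM in Sham+Veh. Lyz2, a lysozyme gene that made up the largest part of that sum, stood at 242 and 323 CPM in CPIP+ETA, 417 and 381 CPM in CPIP+Veh, and 315 and 252 CPM in Sham+Veh. Without Lyz2, left out after its values were seen, the other 13 summed to 290.0 and 300.04 CPM in CPIP+ETA, 221 and 259 CPM in CPIP+Veh, and 249 and 237 CPM in Sham+Veh, so that CPIP+ETA was highest with no overlap. Of 8 red blood cell markers, 7 had a higher mean in CPIP+ETA than in CPIP+Veh, 6 of them with no overlap (15.7% of all genes), and the list summed to 310.3 and 185 CPM in CPIP+ETA, 29.0 and 119 CPM in CPIP+Veh, and 95.7 and 87.2 CPM in Sham+Veh. No marker of these lists was at 0 in any library. CPIP+ETA 2, the library with more Hmox1, had more of 6 and less of 8 of the macrophage markers than CPIP+ETA 1, Cd163 among the 8 and Lyz2 and Mrc1 among the 6, and its red blood cell sum was lower. The part of these cells in the Hmox1 values was not tested.

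**Figure D3:**
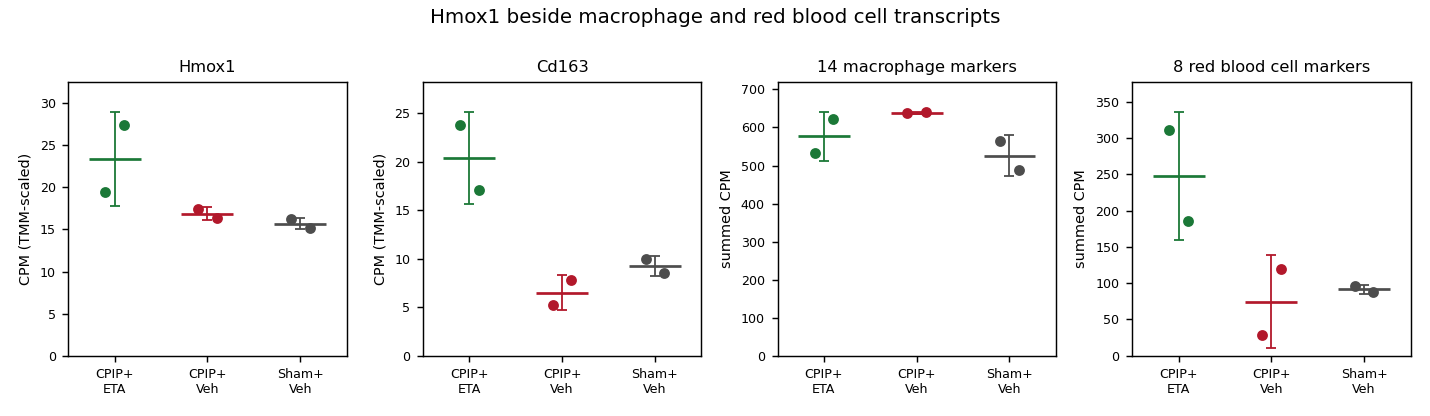
TMM-scaled CPM of Hmox1 and Cd163, and summed CPM of 14 macrophage and 8 red blood cell markers (y axes, from 0), by group (x axes); points are libraries, horizontal bars means and error bars SD (n = 2). Hmox1, Cd163 and the red blood cell sum are highest in the CPIP+ETA libraries, and the macrophage sum of all 14 markers is highest in CPIP+Veh (637 and 641 CPM). Without Lyz2, left out after its values were seen, the macrophage sum is highest in CPIP+ETA (290.0 and 300.04 CPM, not plotted).

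CPIP+ETA was also set against Sham+Veh, to see which members stood apart from sham in rats given etanercept. The 3 comparisons share libraries in pairs, so their values are not independent of each other. Of the 10 members, 7 were above 0 (49.3% of all genes) and 3 below, with a median log2 fold change of 0.03, beside -0.00 over all genes. EdgeR called 0 of 10 members (0.0193% of all genes), with 1 higher and 1 lower at an unadjusted p under 0.05 (2.64% and 3.73% of all genes), DESeq2 called 0 (0.322%) and limma-voom 0 (0.00644%).

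Hmox1 had a log2 fold change of 0.57 (SE 0.16, 95% interval 0.18 to 0.96, edgeR adjusted p = 0.636), and 0.31 without CPIP+ETA 2. Sod1 stood at 291 and 268 CPM in CPIP+ETA, above 249 and 257 CPM in Sham+Veh (log2 fold change 0.14, SE 0.069, adjusted p = 0.817 in edgeR). Sod2 stood at 236 and 206 CPM in CPIP+ETA, above 196 and 205 CPM in Sham+Veh (log2 fold change 0.14, SE 0.087, adjusted p = 0.845 in edgeR), with 0.048 without CPIP+ETA 1. These were the 3 of 10 members above sham with no overlap (17.2% of all genes), and CPIP+ETA 2 exceeded the higher sham library of Sod2 only narrowly.

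Below sham with no overlap were 2 of 10 members (18.5% of all genes), Gpx2 and Cat. Gpx2 had a log2 fold change of -0.43 (SE 0.11, 95% interval -0.69 to -0.16, edgeR adjusted p = 0.617), with -0.59 without Sham+Veh 1 and -0.23 without Sham+Veh 2. Cat stood at 112 and 107 CPM in CPIP+ETA, 116 and 109 CPM in CPIP+Veh, and 119 and 116 CPM in Sham+Veh (CPIP+ETA against Sham+Veh log2 fold change -0.09, SE 0.058, adjusted p = 0.847 in edgeR). Its group means ran CPIP+ETA, CPIP+Veh, Sham+Veh from low to high, and neighbours in that order overlapped.

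Across the 3 groups, Hmox1 was the 1 of 10 members in which no pair of groups overlapped (7.41% of all genes), with CPIP+ETA above CPIP+Veh above Sham+Veh. Hmox1, Sod1 and Sod2 were the 3 of 10 with both CPIP groups above sham and no overlap (7.42% of all genes), and 0 of 10 had both below it (8.38%).

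The members Gclc, Gclm, Txnrd1 and Nqo1 overlapped in every comparison. Gclc stood at 46.7 and 53.4 CPM in CPIP+ETA, 45.8 and 53.3 CPM in CPIP+Veh, and 47.4 and 45.6 CPM in Sham+Veh. Gclm stood at 58.5 and 53.9 CPM in CPIP+ETA, 55.8 and 56.2 CPM in CPIP+Veh, and 52.1 and 58.2 CPM in Sham+Veh. Txnrd1 stood at 152 and 158 CPM in CPIP+ETA, 153 and 151 CPM in CPIP+Veh, and 146 and 155 CPM in Sham+Veh. In each of these 3 genes the widest gap between libraries of 1 group exceeded every gap between group means. Nqo1 stood at 84.6 and 70.2 CPM in CPIP+ETA, 90.5 and 73.3 CPM in CPIP+Veh, and 80.8 and 83.2 CPM in Sham+Veh, and its highest and its lowest library both came from rats with the ring.

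The profile of Hmox1 over the 6 libraries, in log2 CPM centred on its mean, was nearest to those of Ca5a, a mitochondrial carbonic anhydrase, Slc19a3, a thiamine transporter, and Il6r, a receptor of interleukin 6. Their root-mean-square distances from it were 0.052, 0.068 and 0.075 log2 units, where the median over 14431 genes was 0.29. Nqo1 was nearest to Spsb4, Cdhr4 and Ly6e, at 0.014, 0.029 and 0.038 log2 units, with a median of 0.16 over the same genes. Within 0.1 of Nqo1 lay 873 genes, and within 0.1 of Hmox1 lay 7. Such counts depend on how far a gene varied about its own mean. That root-mean-square spread was 0.27 log2 units for Hmox1 and 0.12 for Nqo1. The flatter Txnrd1 (0.037) had 7077 genes within 0.1, and Gclm (0.058) had 6092.

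None of the 12 regulators of NRF2 tested had an unadjusted p under 0.05 in any comparison. Nfe2l2 itself stood at 50.8 and 57.3 CPM in CPIP+ETA, 57.3 and 64.2 CPM in CPIP+Veh, and 56.3 and 57.7 CPM in Sham+Veh, with overlap throughout and log2 fold changes of 0.09 in CPIP+Veh against Sham+Veh, -0.17 in CPIP+ETA against CPIP+Veh and -0.08 in CPIP+ETA against Sham+Veh. Keap1, its inhibitor, had log2 fold changes of -0.04, 0.07 and 0.03 in the same comparisons, and Bach1, the repressor, had 0.08, 0.06 and 0.14. The lowest p-values belonged to Dpp3 (log2 fold change 0.08), which competes with NRF2 for KEAP1, and the autophagy receptor Sqstm1 (0.11) in CPIP+Veh against Sham+Veh. In CPIP+ETA against CPIP+Veh they belonged to the small MAF gene Mafk (0.17) and Nfe2l2, and in CPIP+ETA against Sham+Veh to Maff (0.61, and 0.093 without CPIP+ETA 2) and Rbx1 (0.08), part of the ligase that marks NRF2. NRF2 is controlled mainly through its protein, which was not measured here.

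Beyond the members, 8 related lists, the regulators included, held 146 genes, of which 145 were in the table and 134 were tested. EdgeR called 0 of the 134 in each of the 3 comparisons. At an unadjusted p under 0.05 there were 6 higher and 8 lower in CPIP+Veh against Sham+Veh (4.94% of all genes in either direction), 3 and 9 in CPIP+ETA against CPIP+Veh (5.15%), and 4 and 5 in CPIP+ETA against Sham+Veh (6.37%). By direction, the shares of all genes were 2.34% higher and 2.59% lower, 2.42% and 2.73%, and 2.64% and 3.73%, in the same order of comparisons. The counts given for each list below are to be read beside these shares. A single value given for a gene of these lists is its log2 fold change. DESeq2 called 0 in the first comparison and 1 in each of the others, Cd163 both times.

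Of 21 thioredoxin and peroxiredoxin enzymes, 2 were higher and 1 lower at an unadjusted p under 0.05 in CPIP+Veh against Sham+Veh (median log2 fold change 0.05), 0 and 4 in CPIP+ETA against CPIP+Veh (0.01), and 0 and 0 in CPIP+ETA against Sham+Veh (0.05). Prdx1, a cytosolic peroxiredoxin and NRF2 target, stood at 189.7 and 211 CPM in CPIP+ETA, 227 and 224 CPM in CPIP+Veh, and 181 and 189 CPM in Sham+Veh (CPIP+Veh against Sham+Veh log2 fold change 0.29, SE 0.064, adjusted p = 0.695 in edgeR, and CPIP+ETA against Sham+Veh 0.11). Msrb1, a methionine sulfoxide reductase, stood at 36.1 and 34.7 CPM in CPIP+ETA, 40.7 and 40.4 CPM in CPIP+Veh, and 36.3 and 35.7 CPM in Sham+Veh, with log2 fold changes of 0.17 in CPIP+Veh against Sham+Veh and -0.19 in CPIP+ETA against CPIP+Veh. Both genes were highest in the CPIP+Veh libraries, which enter both comparisons. Txn1, thioredoxin itself, had -0.15 (SE 0.051, edgeR adjusted p = 0.938) in CPIP+ETA against CPIP+Veh, and Msrb3 had -0.27 in CPIP+ETA against Sham+Veh.

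Glutathione S-transferases couple glutathione to electrophiles. Of 17 tested, 6 were above 0 in CPIP+Veh against Sham+Veh (49% of all genes), 4 in CPIP+ETA against CPIP+Veh (49.6%) and 4 in CPIP+ETA against Sham+Veh (49.3%). Their median log2 fold changes were -0.03, -0.08 and -0.14. At an unadjusted p under 0.05, 0 were higher and 2, 2 and 3 lower (2.59%, 2.73% and 3.73% of all genes were lower). Gstm5 stood at 7.00 and 7.35 CPM in CPIP+ETA, 8.61 and 10.3 CPM in CPIP+Veh, and 11.4 and 11.7 CPM in Sham+Veh (CPIP+ETA against Sham+Veh log2 fold change -0.69, SE 0.13, adjusted p = 0.472 in edgeR, and CPIP+ETA against CPIP+Veh -0.40), and no pair of groups overlapped. Gstm2 had -0.19 and Gstm1 -0.18 (-0.086 without Sham+Veh 1) in CPIP+Veh against Sham+Veh, Gstm2 had -0.24 in CPIP+ETA against Sham+Veh, and the membrane-bound Mgst1 had -0.21 (-0.10 without CPIP+Veh 1) in CPIP+ETA against CPIP+Veh. Genes of the Gstm family are close copies between which reads can be split, so their single values are uncertain. Beside this list, all 8 fibroblast markers had a lower mean in each CPIP group than in sham, and they summed to 2306 and 2944 CPM in CPIP+ETA, 2850 and 3489 CPM in CPIP+Veh, and 3636 and 3884 CPM in Sham+Veh, with none at 0 in any library. Markers of other cell types also had lower means than in sham: of 9 pericyte and smooth muscle markers, 9 in CPIP+ETA and 7 in CPIP+Veh, of 10 endothelial markers, 8 in CPIP+ETA and 9 in CPIP+Veh, and of 8 adipocyte markers, 8 in each, 6 of these 8 being at 0 in at least 1 library. Further cell types went the other way. Means were higher than in sham for 7 of 8 skeletal muscle markers in CPIP+ETA and 8 in CPIP+Veh. Of these muscle markers, 0 were higher with no overlap in either comparison, and 1 was at 0 in at least 1 library. They were also higher for 8 of 8 neutrophil markers in CPIP+ETA and 7 in CPIP+Veh, and for 12 of 14 macrophage markers in CPIP+ETA and 9 in CPIP+Veh. Over all genes, 49.3% in CPIP+ETA and 49% in CPIP+Veh had a log2 fold change above 0 against sham. The part of any of these cells in the transferase values was not tested.

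Of 22 other glutathione enzymes, 1 was at an unadjusted p under 0.05 in each comparison. Ggt5, which cleaves extracellular glutathione and leukotrienes, stood at 29.1 and 25.5 CPM in CPIP+ETA, 29.2 and 28.1 CPM in CPIP+Veh, and 23.4 and 23.0 CPM in Sham+Veh (CPIP+Veh against Sham+Veh log2 fold change 0.30, SE 0.089, adjusted p = 0.938 in edgeR, and CPIP+ETA against Sham+Veh 0.23), and both CPIP groups were above sham with no overlap. Glo1, the glyoxalase that clears methylglyoxal, had -0.16 and the secreted peroxidase Gpx3 0.47 in CPIP+ETA against CPIP+Veh, the value of Gpx3 being 0.094 without CPIP+ETA 2. Chac1, which degrades glutathione, had -0.20 in CPIP+Veh against Sham+Veh, and Ggct, a gamma-glutamyl cyclotransferase, -0.31 in CPIP+ETA against Sham+Veh (-0.15 without CPIP+ETA 2).

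Of 24 NADPH and detoxification targets, 2 were higher and 1 lower at an unadjusted p under 0.05 in CPIP+Veh against Sham+Veh, 1 and 0 in CPIP+ETA against CPIP+Veh, and 0 and 0 in CPIP+ETA against Sham+Veh. Idh1, which supplies cytosolic NADPH, stood at 203 and 288 CPM in CPIP+Veh, against 187 and 184 CPM in Sham+Veh (log2 fold change 0.41, SE 0.15, adjusted p = 0.938 in edgeR), with 0.13 without CPIP+Veh 2. The efflux pump Abcc3 had -0.30 in CPIP+Veh against Sham+Veh, and Abcg2, another efflux pump, 0.33 in CPIP+ETA against CPIP+Veh. Akr1b10, an aldo-keto reductase, had 0.48 in CPIP+ETA against CPIP+Veh. In CPIP+ETA against Sham+Veh, Abcc3 had -0.25 and Abcc1 0.19.

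**Figure D4:**
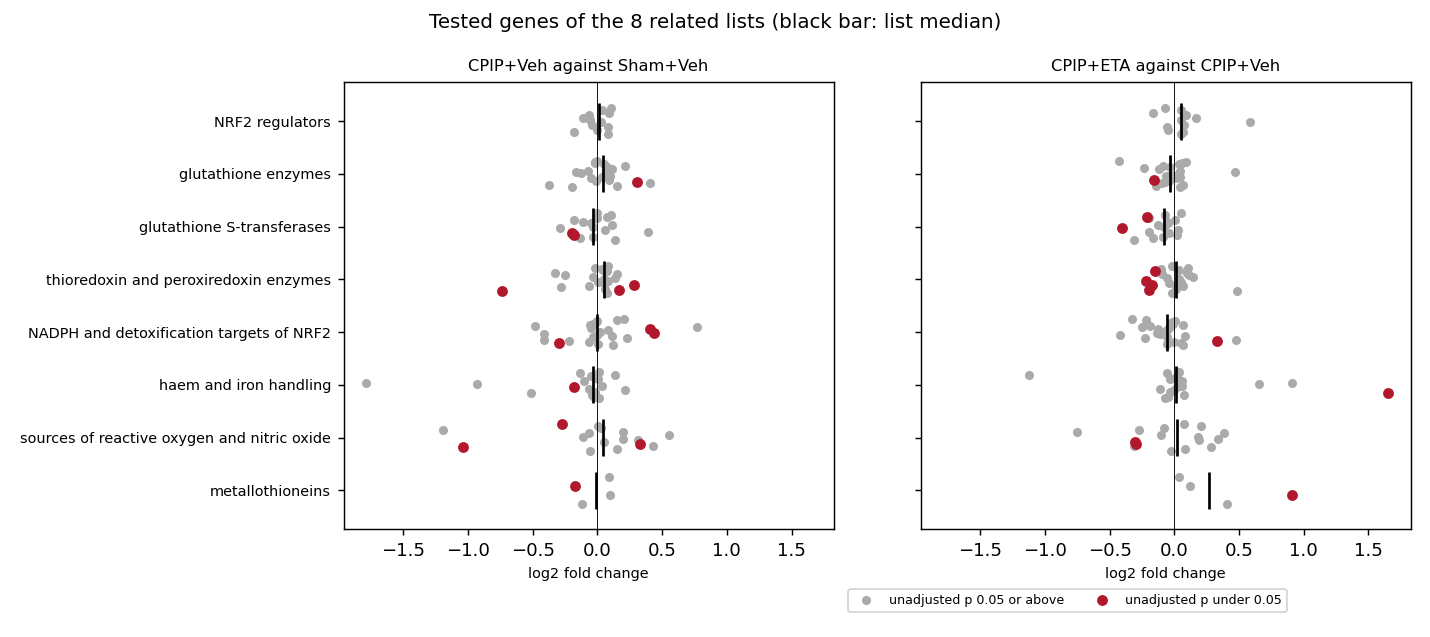
Log2 fold change (x axis) of the tested genes of 8 related lists (rows) in CPIP+Veh against Sham+Veh and in CPIP+ETA against CPIP+Veh (panels); each point is a gene, red where the unadjusted p was under 0.05, and black bars are list medians. The 4 genes of the metallothionein list have a median of 0.27 in CPIP+ETA against CPIP+Veh, and Cd163 is the point farthest to the right in that panel (1.65).

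Of 18 haem and iron handling genes, 1 was higher (Cd163) and 0 lower at an unadjusted p under 0.05 in CPIP+ETA against CPIP+Veh, with a median log2 fold change of 0.01. Ftl1, the ferritin light chain, stood at 467 and 445 CPM in CPIP+Veh, against 516 and 519.9 CPM in Sham+Veh (log2 fold change -0.18, SE 0.073, adjusted p = 0.938 in edgeR), and the haem transporter Slc48a1 had -0.18 in CPIP+ETA against Sham+Veh. Slc40a1, the iron exporter ferroportin, stood at 0.353 and 2.18 CPM in CPIP+ETA, 2.63 and 2.82 CPM in CPIP+Veh, and 1.30 and 3.67 CPM in Sham+Veh. The log2 fold change of CPIP+ETA against CPIP+Veh was -1.12, with -0.32 without CPIP+ETA 1. The gene was counted only 7 times in CPIP+ETA 1 and 40 times in CPIP+ETA 2, and the sham libraries lay on both sides of CPIP+Veh. Cd163 itself had -0.51 in CPIP+Veh against Sham+Veh (-0.25 without CPIP+Veh 1 and -0.83 without CPIP+Veh 2) and 1.14 in CPIP+ETA against Sham+Veh (DESeq2 adjusted p = 0.0263 in CPIP+ETA against Sham+Veh).

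Of 16 sources of reactive oxygen and nitric oxide, 1 was higher and 2 lower at an unadjusted p under 0.05 in CPIP+Veh against Sham+Veh, 0 and 2 in CPIP+ETA against CPIP+Veh, and 1 and 1 in CPIP+ETA against Sham+Veh. Maoa, which releases hydrogen peroxide as it degrades serotonin and noradrenaline, stood at 64.3 and 70.8 CPM in CPIP+ETA, 80.7 and 84.8 CPM in CPIP+Veh, and 65.2 and 66.9 CPM in Sham+Veh (CPIP+Veh against Sham+Veh log2 fold change 0.33, SE 0.066, adjusted p = 0.643 in edgeR, and CPIP+ETA against CPIP+Veh log2 fold change -0.29, SE 0.066, adjusted p = 0.938). CPIP+Veh was above both other groups with no overlap. Maob, the second monoamine oxidase, had -0.31 (-0.17 without CPIP+Veh 1) in CPIP+ETA against CPIP+Veh and -0.25 in CPIP+ETA against Sham+Veh, and Xdh, xanthine dehydrogenase, had -0.27 in CPIP+Veh against Sham+Veh. Ncf1, a subunit of the phagocyte NADPH oxidase, stood at 21.3 and 18.7 CPM in CPIP+ETA and at 16.0 and 12.3 CPM in Sham+Veh (log2 fold change 0.50, SE 0.14, adjusted p = 0.636 in edgeR). In that comparison, 12 of the 14 macrophage markers had a higher mean in CPIP+ETA (49.3% of all genes had a log2 fold change above 0). With no overlap, 7 were higher and 1 lower (17.2% and 18.5% of all genes). The sums of the 14 overlapped, at 532 and 623 CPM in CPIP+ETA and 564 and 489 CPM in Sham+Veh. The part of macrophages in the Ncf1 values was not tested.

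The metallothioneins bind zinc and copper and are induced by metals, oxidants and glucocorticoids. All 4 genes tested of this list, which includes their activator Mtf1, lay above 0 in CPIP+ETA against CPIP+Veh (49.6% of all genes). Of them, 1 had an unadjusted p under 0.05 (2.42% of all genes were higher at that p). Mt2A stood at 6.30 and 11.3 CPM in CPIP+ETA, 5.27 and 4.09 CPM in CPIP+Veh, and 4.77 and 3.99 CPM in Sham+Veh (CPIP+ETA against CPIP+Veh log2 fold change 0.91, SE 0.29, adjusted p = 0.938 in edgeR, and CPIP+ETA against Sham+Veh log2 fold change 1.0, SE 0.30, adjusted p = 0.636). Like Hmox1, it was higher in CPIP+ETA 2 than in CPIP+ETA 1, and without CPIP+ETA 2 its log2 fold change against CPIP+Veh was 0.43. Mt3, a form abundant in brain, had -0.17 in CPIP+Veh against Sham+Veh and 0.12 in CPIP+ETA against CPIP+Veh. Mt1 had 0.29 in CPIP+ETA against Sham+Veh (-0.049 without CPIP+ETA 2), and Mtf1 had 0.09 in CPIP+Veh against Sham+Veh.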

How the data were processed

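RNA of the ganglia was sequenced on a BGISEQ-500, per the labels' protocols, and the authors' deposited table holds expected counts, which estimate the reads of a gene and can be fractions. The submitters' processing notes name the build Rnor_6.0. With aligner, counter, annotation and strand setting not given in the sources used here, it is not known how reads of close copies or overlapping genes were split. The 2907 genes blank in every library were read as 0, and the deposited expected counts were rounded. All genes were fitted in edgeR 4.0.16 (R 4.3.3) by the quasi-likelihood F-test, with the 6 libraries in 1 fit, group as the only term, TMM scaling and filterByExpr (minimum count 10, minimum total 15). A call is a Benjamini-Hochberg adjusted p under 0.05 over 15531 genes. Intervals are 95%, from 3 residual and 3.64 prior degrees of freedom, and the SE is the log2 fold change over the square root of F. The fit was also run on simulated counts, with the same spread for every gene and fold changes larger than those of the members. That run does not give the power to find changes of the size seen in the members. Counting errors leave out every other source of error.

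The members and lists were chosen with earlier results of these data known. The genes named were all members, the 2 genes with the lowest p in each list and comparison, Nfe2l2, Keap1, Bach1, and the nearest profiles of Hmox1 and Nqo1 among genes of at least 1 CPM. Sod3, from the list of thioredoxin and peroxiredoxin enzymes, was added beside Sod1 and Sod2 after its values were seen. The fit was repeated with DESeq2 1.42.0, with limma-voom (limma 3.58.1), with scaling by RLE, the upper quartile or the library total, with other filters, only the 2 groups compared, a replicate block, a robust prior, a threshold of 0.1, and without each library, a lone library then being assumed to vary like the other groups. DESeq2 with libraries left out was chosen after seeing the data. Libraries of a group differed by 5.91 to 9.83 chi-square units per gene, more than sampling noise, and libraries of different groups by 6.12 to 12.3. The CPIP+ETA libraries differed from each other by 9.83. CPIP+ETA 2 differed by less from every CPIP+Veh and Sham+Veh library, by 6.12 to 6.54, so over all genes the libraries did not sort by group. Figures were drawn with matplotlib 3.10.9.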

Additional observations from a re-analysis of the deposited data

How the results depend on the processing

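Over 480 recomputed log2 fold changes of the 10 members (16 settings, 3 comparisons), 29 changed sign, in 8 genes, and the cause was not tested. No edgeR setting called a member, the smallest adjusted p being 0.234. The groups hold 2 libraries each, which limits the precision of every value: of 60 log2 fold changes of named genes that were at least 0.1 in size, 36 moved by over 1.5 times or changed sign with 1 library left out.

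The count of all genes called in CPIP+Veh against Sham+Veh was 3, with 49 by DESeq2 and 1 to 3 with a library left out (1 without CPIP+Veh 2). In CPIP+ETA against CPIP+Veh it was 0, with 21 by DESeq2. In CPIP+ETA against Sham+Veh it was 3, with 50 by DESeq2, 1 by limma-voom, 1 with only the 2 groups compared and 1 to 2 with a library left out (1 without CPIP+Veh 1, CPIP+Veh 2 or CPIP+ETA 1). For any difference it was 1, with 2 under RLE, upper-quartile or library-total scaling, no filter or the robust prior, 77 by DESeq2, 3 at an adjusted p under 0.1 and 1 to 2 with a library left out (2 without either Sham+Veh or either CPIP+ETA library). Members called were 0, but 1 (Gpx2) by DESeq2 in CPIP+ETA against CPIP+Veh and for any difference. The members' median ran from 0.047 to 0.10 in CPIP+Veh against Sham+Veh, -0.060 to 0.010 in CPIP+ETA against CPIP+Veh and 0.016 to 0.085 in CPIP+ETA against Sham+Veh with a library left out. The test for any difference has no value with only 2 groups.

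Nqo1 in CPIP+Veh against Sham+Veh was -0.0018 and turned to 0.0014 under RLE scaling, 0.0082 under upper-quartile scaling, 0.0015 by DESeq2, 0.0044 with no filter and 0.0029 with only the 2 groups compared. Gclm in CPIP+ETA against CPIP+Veh turned to -0.0065 under upper-quartile scaling. The other log2 fold changes that changed sign did so with a library left out, and their ranges then follow. In CPIP+Veh against Sham+Veh they were Keap1 -0.10 to 0.018, Bach1 -0.19 to 0.31, Nqo1 -0.16 to 0.14, Gclc -0.023 to 0.20, Gclm -0.048 to 0.11, Txnrd1 -0.027 to 0.060 and Gpx2 -0.016 to 0.34. In CPIP+ETA against CPIP+Veh they were Bach1 -0.17 to 0.33, Nqo1 -0.23 to 0.084, Gclc -0.088 to 0.13, Gclm -0.055 to 0.061, Txnrd1 -0.0016 to 0.064, Srxn1 -0.27 to 0.00063, Sod1 -0.053 to 0.095 and Cat -0.074 to 0.018. In CPIP+ETA against Sham+Veh they were Mt1 -0.049 to 0.58, Nfe2l2 -0.16 to 0.016, Keap1 -0.0096 to 0.078, Nqo1 -0.22 to 0.049, Gclm -0.043 to 0.11 and Srxn1 -0.027 to 0.093.

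Same-numbered libraries had correlations of 0.02, 0.10 and -0.087, so no strong shift shared by number was seen over all genes. Some marker lists did differ by number. In every group the library numbered 2 had larger sums of skeletal muscle, neutrophil, fibroblast, and pericyte and smooth muscle markers than the library numbered 1. Its sum of sensory neuron markers was smaller in every group. Whether the libraries were prepared or run in numbered pairs cannot be told from these values. With the number as a replicate block, 3, 0 and 3 genes were called in the 3 comparisons, 1 for any difference, and 0 members.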
